A study of Mus musculus with 8 samples.

Results

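Chromatin bound by the E2F3 antibody was compared between wild-type and E2f3-/- (E2f3 null) mouse embryonic fibroblasts, primary connective tissue cells taken from the embryo, here at E13.5. These were 3 of the 8 libraries of the series: E2F3 antibody in wild type, E2F3 antibody in E2f3 null, and IgG, an immunoglobulin with no chosen target that gives the background. Each was chromatin immunoprecipitation followed by sequencing (ChIP-seq), with 1 library a side. The regions studied were the 8889 wild-type and 3314 E2f3-null peaks listed by the authors, joined wherever they shared at least 1 bp, which gave 9643 of the 27092 peak regions of the series. The labels name the genotype, the stage and the cell type, and do not give the allele, how many embryos were pooled, or the passage of the cells.

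E2F3 is a DNA-binding transcription factor of the E2F family, whose members act with DP partners at promoters of genes for DNA replication and the cell cycle. Retinoblastoma-family proteins bind E2Fs and hold these promoters back in quiescent cells, and their release after phosphorylation lets the genes be transcribed. An antibody library from cells that lack the target shows what remains of the signal when the target is missing, including binding of the antibody to related proteins and recovery of open chromatin by any immunoprecipitation. HELLS, a chromatin remodelling helicase, and H3K27me3, the Polycomb mark of silent genes, were measured in the same series and are used here only to describe the E2F3 regions.

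After keeping 1 read per position and strand, the wild-type E2F3 library held 4775822 reads, the E2f3-null library 4303093 and IgG 7219419. Outside all peak regions these were 4230520, 4070809 and 6957965 reads, so that null counts were multiplied by 1.04 and IgG counts by 0.608. Identical reads were deposited as IgG for both genotypes, and they count as 1 library without a genotype. Reads of 25 bp made up 98.7% to 98.9% of these files. There are no replicates, so a difference is one between libraries rather than conditions and carries no p-value. All intervals are at 95% and hold counting error alone. In bulk chromatin, recovery by the antibody from fewer cells and less recovery per cell cannot be told apart.

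The 2 peak lists had the same width and very different strength. Wild-type peaks had a median width of 669 bp (quartiles 486 and 899) and null peaks 668 bp (493 and 869). The median wild-type peak held 41 tags in the deposited table and the median null peak 22. The authors' score, which is 10 times the negative log10 of the peak caller's p-value, had a median of 129 and a highest value of 2617 in wild type, against 70.5 and 360 in null cells. The median fold enrichment in the deposited tables was 12.95 and 9.29. The height of the deposited signal at the summit, the highest point of a peak, had a median of 18 and a maximum of 163 in wild type, against 10 and 33 in null cells. Tags, score, fold and summit height were therefore all lower in the null list, while the space a peak covered was not.

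Most of the read excess at E2F3 regions was gone without E2f3, and a smaller part above IgG was left. Summed over the 9643 regions, wild type had 64.7 reads per kb, E2f3 null 23.0 and IgG 12.01, all scaled to the wild-type library. The excess left, meaning null minus IgG as a percent of wild type minus IgG, was 20.8% (20.6 to 21.1). A region is called lower or higher where the scaled ratio passed 2-fold and its exact interval left out 1. By this rule 6439 regions (66.8%) were lower and 92 (0.954%) higher, and all 92 higher regions were listed in null cells alone. With shared regions set to a median of no change these counts became 1459 and 607, and the median log2 ratio of all regions moved from -1.45 to -0.29, so the calls are relative to the reads outside peaks. As a background for the rule, 1 kb bins outside all peaks that held 20 or more IgG reads were put through it. Of 809 such bins 13.6% were lower and 0.494% higher. Their median log2 ratio was -0.31 and their pooled ratio 0.910. Bins rich in IgG reads but without a peak were thus also lower in the null library, by less than the regions. In bins with 10 to 19 IgG reads 2.32% were lower and 0.693% higher, with a pooled ratio of 0.888. Over all 2593976 bins, with a median of 1 wild-type read, 0.260% were lower and 0.163% higher. Their pooled ratio was 1.00, which the scaling sets.

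Among the 8844 regions with a wild-type peak, wild-type reads were at least 2-fold over scaled IgG in 8825 and at or below IgG in 0. These peaks were called in wild type against IgG, so both wild-type counts follow from the choice of regions. Null reads at the same regions were at least 2-fold over IgG in 3560 (40.3%) and at or below it in 1265 (14.3%). In 165 regions the null library had 0 reads. Regions listed in wild type alone kept 12.3% of the excess (12.01 to 12.6), while those listed in both genotypes kept 28.5% (28.1 to 28.9). Both lists were called from the reads that are compared, so this gap between them partly restates how regions entered a list. In the plot of null against wild-type read density, regions of both lists lie below the line of equal density and the null-only regions lie around it.

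**Figure D1:**
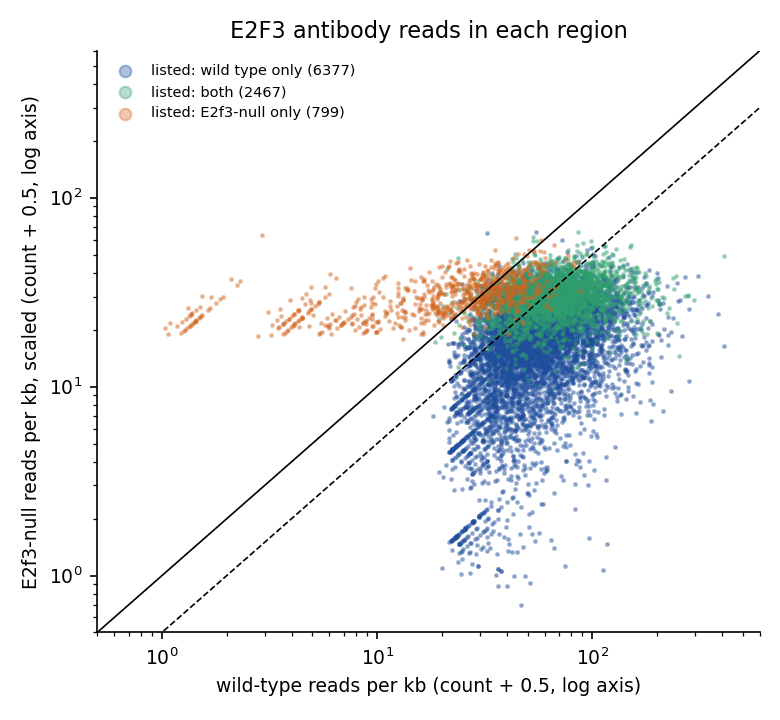
Each point is 1 of the 9643 regions, with wild-type reads per kb on the x axis and scaled E2f3-null reads per kb on the y axis, both on log axes with 0.5 added to the count and coloured by the list that holds the region. Wild-type-only and shared regions spread below the line of equal density, and the gap to the line widens to the right.

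Strength was examined first. Regions with a wild-type peak were put in 10 classes of equal size by the authors' wild-type score, with class 10 the strongest. Wild-type density rose from 36.8 reads per kb in class 1 to 118 in class 10. Null density rose far less, from 17.2 to 25.6, and IgG density hardly moved, from 10.7 to 11.97. The density left above IgG in null cells rose from 6.43 to 13.7 reads per kb over the same classes. In wild type the density above IgG rose from 26.1 to 106 reads per kb. The part above IgG thus rose more steeply with strength in wild type than in null cells.

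The loss deepened with strength only from the middle classes upward. The median log2 ratio of null to wild type lay between -1.31 and -1.24 in classes 1 to 5. It was -1.46 in class 6, -1.51 in class 7, -1.68 in class 8, -1.82 in class 9 and -2.25 in class 10. The excess left was 24.6%, 25.8%, 24.5% and 24.6% in classes 1 to 4. It then fell from class to class and reached 12.9% (12.5 to 13.2) in class 10. The share of regions called lower rose from 39.9% to 99.7%, which also follows the number of reads, since the median region held 16 wild-type reads in class 1 and 112 in class 10. The share also listed in null cells rose with strength too, from 9.84% in class 1 to 48.7% (45.4 to 52.0) in class 10. From the weakest to the strongest 25% by score the median log2 ratio changed by -0.67, or by -1.05 in a fixed window of 500 bp at the summit. The strongest regions thus lost the largest fraction of their signal and were also the ones most often still listed without E2f3.

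**Figure D2:**
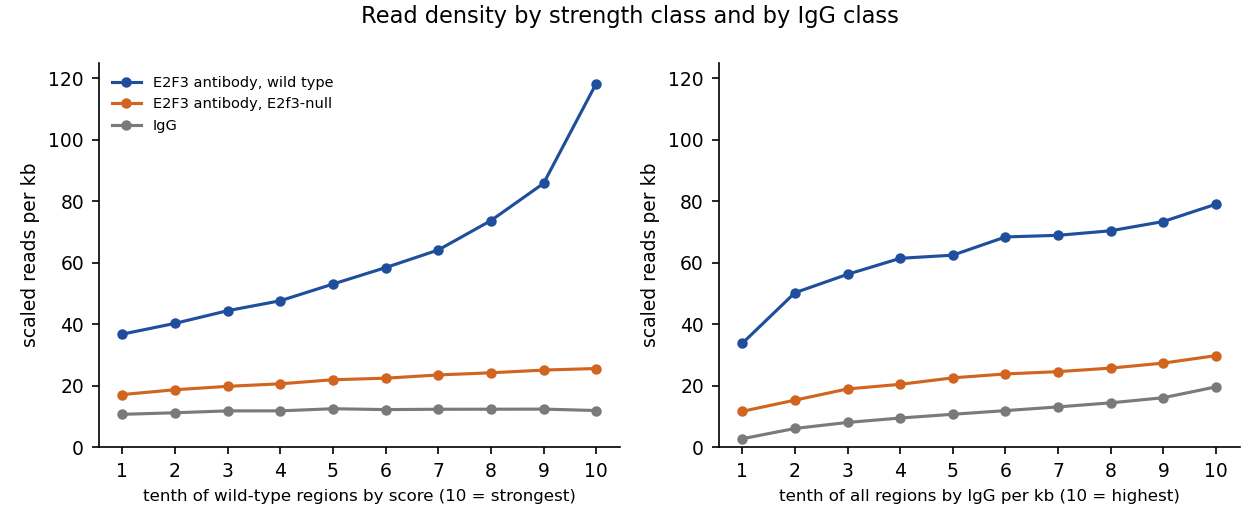
Scaled reads per kb on the y axis for wild type, E2f3 null and IgG, with regions in 10 classes from weakest to strongest wild-type score on 1 panel and from lowest to highest IgG density on the other. Wild type climbs from 36.8 to 118 with strength while null stays between 17.2 and 25.6, and all 3 libraries climb with IgG density.

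Because the score and the ratio use the same wild-type reads, a region that was high by counting noise alone would show both a high score and a large fall. To separate these, regions were ranked by the density of wild-type reads of 1 strand and the excess was measured on reads of the other strand. In class 10 the excess left was then 10.7% when ranked on 1 strand and 11.1% when ranked on the other. In classes 2 to 4 it lay between 25.1% and 26.5%, and in class 1 it was 19.5% and 22.2%. From classes 2 to 4 towards class 10 the fall was as large with the reads for ranking and measuring kept apart. The regions were still called on wild-type reads of both strands. A region with few reads on 1 strand could thus enter through reads of the other, and nothing is read from class 1.

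The region nearest the median ratio was taken in each of 5 score classes as a typical case (all positions are mm9). In the weakest, chr10:52410438-52410921, wild type had 21 reads, null 8 and IgG 7 before scaling, and the scaled ratio of null to wild type was 0.396 (0.152 to 0.930). The next, chr2:172825483-172826217, had 39, 15 and 20 reads and a ratio of 0.400 (0.205 to 0.742). The middle region, chr1:55293722-55294528, had 47, 17 and 14 reads and a ratio of 0.376 (0.202 to 0.667). Null reads were 1.95, 1.28 and 2.08 times scaled IgG reads in these 3, and their ratios differ by less than their intervals.

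The typical region of the fourth class, chr15:99602191-99603304, had 76 wild-type, 24 null and 21 IgG reads and a ratio of 0.328 (0.198 to 0.525). In the strongest class, chr6:131337902-131338679 had 74, 17 and 11 reads and a ratio of 0.239 (0.132 to 0.409). This last region was listed in both genotypes, with a score of 439 in wild type and 52.3 in null cells. Its null reads were 2.64 times the scaled IgG reads, against 11.1 times in wild type.

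Within the strongest of the 10 classes the loss ran from complete at this depth to less than 2-fold. The region chr11:68821675-68822158 had 54 wild-type reads, 0 null reads and 6 IgG reads. A ratio up to 0.0735 is compatible with that 0. At chr10:59164887-59165404 the counts were 49, 1 and 2, a ratio of 0.0212 (5.26e-04 to 0.124), and at chr3:89883309-89883632 they were 41, 1 and 1, a ratio of 0.0253 (6.27e-04 to 0.149). These 3 regions were between 324 and 518 bp wide. They also held few reads of the wild-type HELLS library, at 3, 1 and 1.

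At the other end, 3 of the 885 regions of that class were not called. The region chr9:96531042-96532143 had 75 wild-type, 41 null and 17 IgG reads and a ratio of 0.568 (0.378 to 0.842). On chromosome 8, chr8:129116148-129118935 had 201, 108 and 77 reads and a ratio of 0.558 (0.438 to 0.709), and chr13:35832349-35834283 had 130, 69 and 36 reads and a ratio of 0.552 (0.406 to 0.744). Their intervals exclude both no change and the median fall of their class. All 3 were listed in both genotypes, were between 1102 and 2788 bp wide, and held 53, 105 and 84 wild-type HELLS reads.

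The IgG level was examined next, with all 9643 regions in 10 classes by IgG reads per kb. IgG density itself ran from 2.79 in class 1 to 19.7 in class 10. Wild-type density rose with it from 33.8 to 79.1 reads per kb and null density from 11.7 to 29.8. The density left above IgG in null cells stayed within a narrow band, at 8.91 in class 1 and 10.2 in class 10, with no class above 11.9. The median log2 ratio was -1.73 in class 1 and -1.33 in class 10, so that the plain ratio showed a smaller loss where IgG was high. Between the highest and the lowest 25% by IgG density the difference was 0.36, against 0.20 in a 500 bp window and 0.18 with 2 added to each count. The excess left ran the other way, at 28.7% in class 1 and 17.1% in class 10, with the other 8 classes between 19.6% and 22.9%. The ratio contains the IgG background in both terms and the excess takes it out, and the excess also shares its IgG reads with the ranking. Class 1 also held 62 of the 92 higher regions, which were listed in null cells alone.

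At matched strength the order of ratios was the same, while the gap in excess was small. With 4 classes by score and 4 by IgG density, regions of the lowest IgG class had the lowest median log2 ratio at each score, at -1.71, -1.68, -1.83 and -2.38 from weak to strong. Those of the highest IgG class had -1.09, -1.18, -1.45 and -1.87. The excess left in the lowest IgG class was 22.3%, 22.7%, 21.5% and 15.0%, against 20.5%, 21.9%, 18.7% and 13.7% in the highest, and the 2 classes between them kept more than either at each score. Low-IgG regions also held fewer wild-type reads, with medians of 10 against 33 in the weakest score class and 61 against 103 in the strongest. Across the 9643 regions null density followed IgG density with a Spearman correlation of 0.50 and wild-type density with 0.295. Wild-type density followed IgG density with 0.465. These correlations describe regions of 3 libraries, which share width and mappability and are no replicates.

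The 3 regions with the most IgG reads differed in direction. In chr10:24315130-24317450 the counts were 102 wild type, 137 null and 92 IgG, and the ratio was 1.396 (1.07 to 1.82), so null was the higher library there without reaching 2-fold. The chromosome 8 region above, with 77 IgG reads, came next. In chr7:71082059-71084798 the counts were 219, 91 and 74, with a ratio of 0.432 (0.334 to 0.554), which was called lower. The first and the last of these had null reads 2.54 and 2.10 times scaled IgG.

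At wild-type summits the libraries differed in shape as well as height. Reads were averaged around the wild-type summits of 8844 regions, and the width of the average profile was read at 50% of its height above the level 1500 to 2000 bp away. Wild-type reads formed a sharp peak of 135 bp, null reads a low mound of 309 bp and IgG reads a broad rise of 642 bp. Of the wild-type excess within 500 bp of the summit, 58.2% lay within 100 bp, against 37.8% in null and 30.4% in IgG. In the strongest of 5 score classes the wild-type profile was 136 bp wide and the null profile 500 bp. In the weakest they were 126 and 207 bp. Over the 5 classes the wild-type width stayed between 126 and 138 bp, while the null width rose from class to class.

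**Figure D3:**
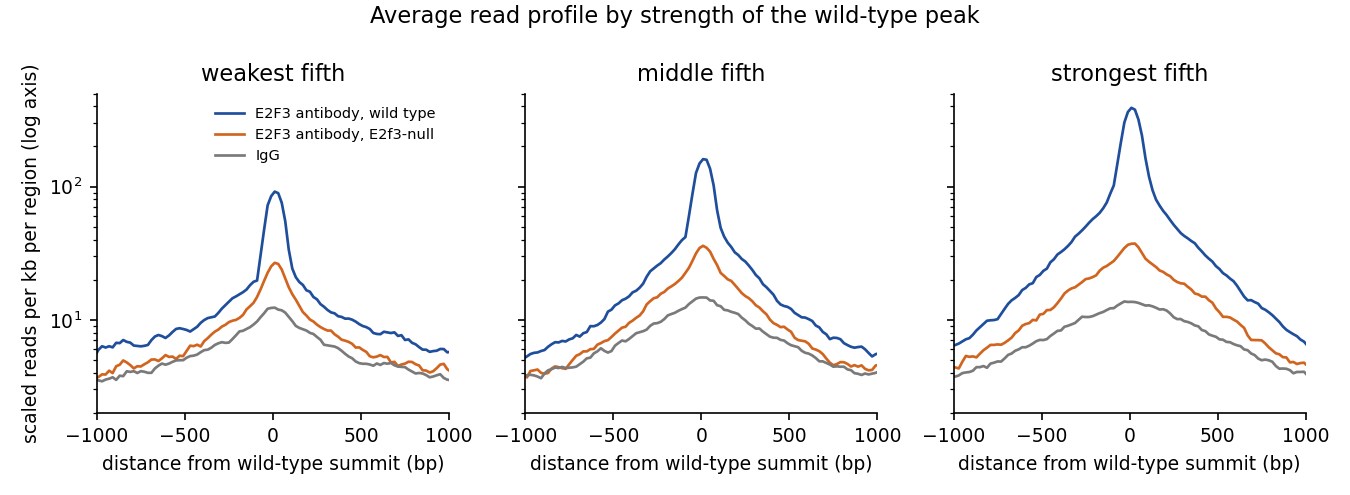
Average scaled reads per kb (log axis) against distance from the wild-type summit in bp, for wild type, E2f3 null and IgG, with 1 panel per score class shown. The sharp wild-type summit stands over a broad null mound, which is 500 bp wide in the strongest class, and IgG is broader and lower still.

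Around wild-type summits the least was left at the centre. Within 60 bp of it, 11.4% of the excess was left, rising to 20.9% at 60 to 120 bp, 26.5% at 120 to 200 bp and 27.8% at 300 to 500 bp. In the strongest class the same steps ran from 6.83% (6.55 to 7.10) within 60 bp to 26.4% (25.02 to 27.8) at 300 to 500 bp. In the weakest class the value was 18.0% (16.9 to 19.1) at the summit and 36.8% (32.9 to 40.7) just beside it, and changed little from there to 500 bp. At 60 to 120 bp the strongest class held 13.1%, so the classes differed most just beside the summit and least at 300 to 500 bp, where the weakest class held 30.6%.

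**Figure D4:**
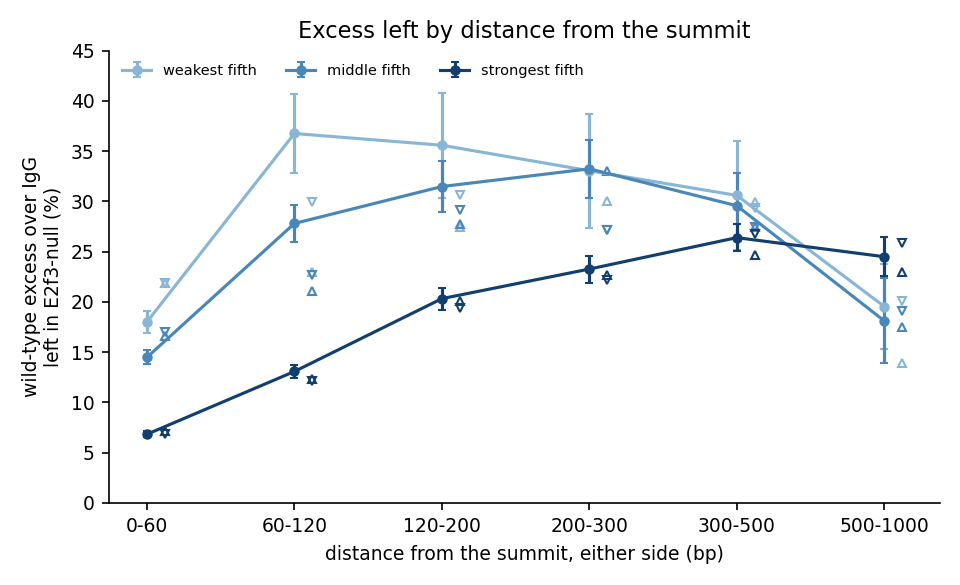
Percent of the wild-type excess over IgG left in E2f3-null cells (y axis, with 95% counting intervals) by distance from the wild-type summit in bp, for score classes from weakest to strongest. In the strongest class the excess left rises from 6.83% at the summit to 26.4% at 300 to 500 bp.

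A summit is placed where its own library is high, which narrows that library's profile, and the data show how far this goes. In the 2467 regions listed in both genotypes, the widths at wild-type summits were 145 bp in wild type and 387 bp in null. At null summits of the same regions they were 163 bp in null and 435 bp in wild type. The excess left turned with the centre: at wild-type summits of these regions it was 16.4% within 60 bp and 39.4% at 300 to 500 bp, and at null summits 58.1% and 18.8%. At the midpoints of all 8844 wild-type regions, which follow neither summit, wild type was 426 bp wide and null 479 bp, and the excess left was nearly flat, at 19.2% within 60 bp and 17.9% at 300 to 500 bp. At wild-type HELLS summits in 1631 regions, wild type was 345 bp wide and null 270 bp, and the excess left was highest at the centre, at 30.1%. The order of widths, and whether the centre keeps less or more than the flanks, thus depend on the centre that is used.

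With the centre set from wild-type reads of 1 strand and the profile read from the other, counting noise no longer enters both of these steps. The regions and their score classes still come from reads of both strands. Over all regions the widths were then 153 and 154 bp in wild type and 342 and 365 bp in null, for the 2 choices of strand. The excess left within 60 bp was 12.6% and 12.3%, and at 300 to 500 bp it was 26.1% and 27.3%. In the strongest class it ran from 7.11% and 6.82% to 24.7% and 26.8%, and in the weakest from 21.9% and 21.9% to 29.99% and 29.3%. At 60 to 120 bp the weakest class held 23.0% and 29.9%, below the 36.8% around the deposited summits. In the shared regions a centre from null reads gave 344 and 350 bp in null and 502 and 524 bp in wild type. Null centres rest on fewer reads, since these regions held a median of 27 null and 64 wild-type reads over both strands. Around centres set by wild-type reads, the low value at the middle of strong regions was therefore also seen on reads that did not place the centre, and a null summit was much less sharp on the strand that did not place it.

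Wild-type and null summits of a shared region often lay apart. Their median distance was 128 bp (quartiles 46.5 and 280), with 1083 of 2467 (43.9%) within 100 bp and 714 (28.9%) more than 250 bp apart. The median distance was 83 bp in the weakest of 4 score classes, then 104, 139 and 201 bp in the strongest. In bp, null summits of strong regions thus lay farther from the wild-type summit than those of weak regions. Over all regions with a wild-type peak, the median width also rose, from 478 bp in the weakest 25% by score to 913 bp in the strongest. The distances were not set against width. Only 45 of these regions joined more than 1 wild-type peak and 48 more than 1 null peak.

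Counted over whole regions, narrow wild-type peaks lost more than wide ones of the same score class. Peaks were put in 4 width classes over the whole wild-type list, with median widths of 377, 579, 773 and 1081 bp, and in 4 score classes. In the strongest score class, the 132 narrowest peaks kept 9.09% of the excess (7.93 to 10.2) and the 1063 widest kept 17.1% (16.7 to 17.5), with medians of 51 and 106 wild-type reads. In the weakest score class the narrowest kept 19.2% and the widest 32.2%. No fixed window was tried within score classes, so the part of the counted width in this was not tested. Over all regions without regard to score, the median log2 ratio of the widest 25% was above that of the narrowest by 0.15. This last difference turned to -0.29 when a fixed window of 500 bp was counted in place of the region, and to -0.039 when 2 was added to each count in place of 0.5.

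The spread of the wild-type reads gives a measure of sharpness that does not use the peak caller's borders. For 3521 regions with at least 50 wild-type reads within 500 bp of the summit, the distance between the quartiles of read positions was taken, and regions were put in 4 classes with medians of 107, 184, 254.5 and 337 bp. These classes had nearly the same number of wild-type reads, with medians of 70, 72, 73 and 78. Their median log2 ratios were -2.23, -1.71, -1.49 and -1.37 from sharp to diffuse. The excess left was 10.6% (10.1 to 11.0), 17.1%, 20.6% and 22.7% (22.1 to 23.3), and the share called lower was 97.6% in the sharpest class and 78.7% in the most diffuse. At a similar median read number, sharp wild-type peaks thus lost more of their signal than diffuse ones. The classes also differed in strength and background, with median scores of 373, 285, 256 and 236 and median IgG reads of 15, 20, 23 and 25. The ratios were still counted over whole regions, whose median widths were 725.5, 912, 1029.5 and 1121 bp. The part of strength, background and width in the result was not tested.

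The 3 widest regions are given as single sites and do not stand for wide regions as a set. In the widest 10% of regions the median log2 ratio was -1.40, against -1.45 over all regions. There 22.2% of the excess was left, against 20.8%, and 78.2% were called lower, against 66.8%. The median of 97 wild-type reads in these wide regions also raises the share called. The widest of all, chr17:4993943-4996831 with 2889 bp, had 140 wild-type, 78 null and 73 IgG reads and a ratio of 0.579 (0.433 to 0.769), which was not called. The next were the chromosome 8 and chromosome 7 regions already given, at 2788 and 2740 bp. Their ratios were 0.558, which was not called, and 0.432, which was called lower. Wide regions also gather more IgG reads, and which of these measures the ratio follows was not tested.

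Regions were far apart as a rule, with a small set in close pairs. The gap between neighbouring regions had a median of 83.1 kb (quartiles 31.4 and 218 kb) and a maximum of 13.2 Mb. A neighbour within 5 kb was found for 1387 regions (14.4%). Of neighbouring pairs, 369 lay within 500 bp of each other, 181 of these within 100 bp, while 87 lay 500 to 1000 bp and 45 lay 1000 to 1500 bp apart. In the pairs within 500 bp the summits were a median of 730 bp apart. Joining regions across gaps of up to 5 kb gave 8908 groups, of which 8256 held 1 region, 579 held 2, 64 held 3 and 9 held 4 or more.

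The loss was nearly the same at every spacing. The median log2 ratio was -1.45 for regions with a neighbour within 5 kb and -1.45 for those without, and the excess left was 21.2% and 20.8%. By distance to the nearest region, the median lay between -1.53 and -1.41 in every one of 7 classes, from under 500 bp to over 100 kb. Neighbours resembled each other only weakly. In 363 pairs within 5 kb with at least 20 wild-type reads each, the log2 ratios had a Spearman correlation of 0.162 and a median difference of 0.704. Both regions were lower in 201 pairs (55.4%), and in 129 pairs just 1 was. In 2605 pairs more than 100 kb apart the correlation was 0.0019, the median difference 0.699, and both were lower in 59.6%. Each read was counted in at most 1 region, though the flank of 1 peak can reach into a close neighbour.

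**Figure D5:**
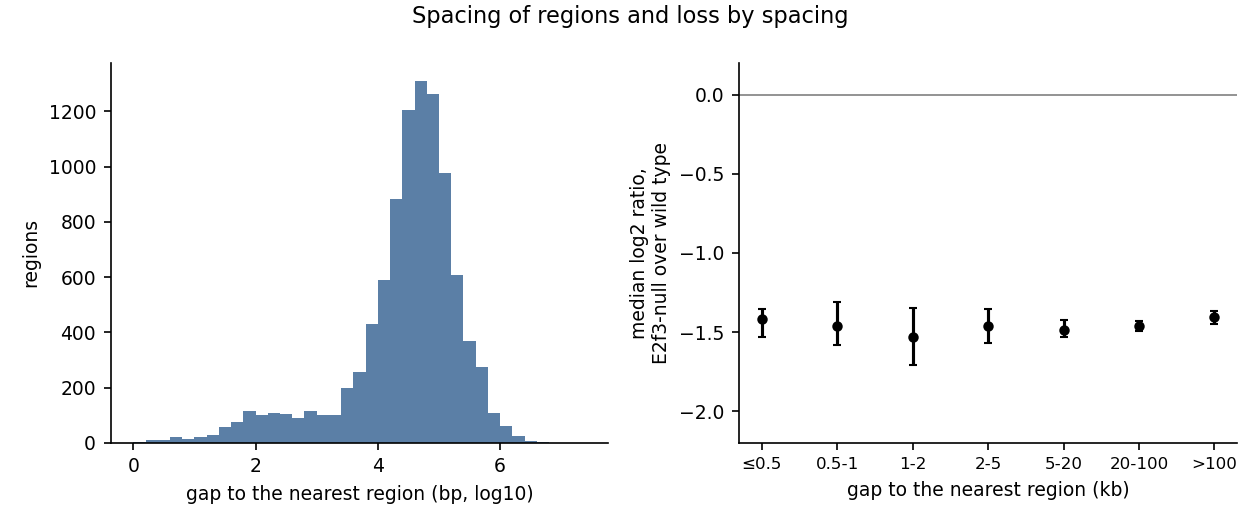
Left, the number of regions by the gap to the nearest region in bp on a log10 axis, and right, the median log2 ratio of null to wild type by that gap in kb, with 95% intervals from order statistics over regions. The gaps form a main body at wide gaps with a smaller group under 500 bp, and the medians stay between -1.53 and -1.41.

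Close pairs and groups showed the range of outcomes. The closest strong pair, 9 bp apart on chromosome 13, was chr13:108678680-108680435 with 75 wild-type, 61 null and 38 IgG reads and chr13:108680445-108681754 with 59, 33 and 25. The first had a ratio of 0.845 (0.593 to 1.20) and the other 0.581 (0.368 to 0.905), and neither was called. The next pair, 18 bp apart, was chr8:86423692-86424626 with 58, 35 and 27 reads and chr8:86424645-86425301 with 50, 24 and 12, at ratios of 0.627 (0.400 to 0.970) and 0.499 (0.293 to 0.827). The largest group held 5 regions (chr11:74643382-74652275) with 182 wild-type, 29 null and 42 IgG reads in all, and 5 of 5 were lower. In a group of 4 (chr18:75525899-75530416) the counts were 127, 69 and 44, and 1 of its 4 was lower. Both groups were picked for being the extremes among the 9 after their values were seen.

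The loss was much the same on every autosome. Median log2 ratios ran from -1.56 on chromosome 7 to -1.37 on chromosome 18, the excess left from 18.5% to 23.7%, and the share called lower from 61.6% to 70.9%. Outside peaks, the scaled ratio of null to wild-type reads was between 0.981 and 1.01 on all 19 autosomes. On chromosome X it was 1.18, and on chromosome Y 0.466, from 2675 wild-type and 1200 null reads. The 190 regions on chromosome X had a median log2 ratio of -1.65, or -1.88 when scaled by the reads outside peaks of that chromosome alone. The E2F3 libraries thus differed in X and Y content beyond the range of the autosomes, and what gave that difference was not tested.

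The 799 regions listed in null cells alone held few reads. They entered because the null library passed the peak cutoff and wild type did not, so a ratio near or above 1 follows from their choice and is given only as a description. The median log2 ratio was 0.25, 7 regions were called lower, and null excess over IgG was 116% (111 to 121) of the wild-type excess. The authors' false discovery rate passed 5% for 406 of them (50.8%), against 706 of the 2467 null peaks in shared regions (28.6%), and for 0 wild-type peaks. The score had a median of 61.4 in null-only and 76.0 in shared peaks. From the weakest to the strongest of 4 score classes, the median log2 ratio of null-only regions was 0.44, 0.41, 0.16 and 0.15. The median wild-type reads rose from 7 to 19 over these classes, and since the score ranks the same null reads, nothing is read from their order.

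The 3 null-only regions with the highest score had near-equal reads in both genotypes. At chr4:46357403-46358397 there were 32 wild-type, 39 null and 19 IgG reads and a ratio of 1.27 (0.773 to 2.09). At chr5:114550300-114550849 there were 23, 25 and 9 reads and a ratio of 1.13 (0.615 to 2.08), and at chr2:152897342-152897923 there were 21, 23 and 9 and a ratio of 1.14 (0.602 to 2.16). In the wild-type H3K27me3 library these 3 regions held 341, 13 and 172 reads.

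Among shared regions, the highest null scores marked unlike sites. The strongest null peak lay in chr6:83233661-83234193, with 22 wild-type, 20 null and 2 IgG reads and a ratio of 0.945 (0.489 to 1.81). Both HELLS libraries had 2 reads there, so this site held reads of the E2F3 antibody in both genotypes and nearly none of the other libraries. At chr3:60304703-60305703 the counts were 72, 35 and 14 with a ratio of 0.505 (0.327 to 0.767), and at chr3:144382482-144383490 they were 139, 38 and 17 with a ratio of 0.284 (0.193 to 0.409). A high null score was thus found with near-equal reads, with a ratio near 0.505 and with a loss called lower. The wide interval at the first site includes the ratio of the second.

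Regions that overlapped a peak of another antibody in wild type kept a larger part of the E2F3-antibody excess over IgG. With a HELLS peak (1669 regions) 25.4% of the excess was left, and without one 19.2%. For regions with a wild-type E2F3 peak, in 5 score classes from weakest to strongest, these were 54.3% and 23.4%, 46.4% and 22.4%, 38.4% and 20.1%, 29.8% and 17.3%, and 19.6% and 11.3%. In the strongest class both sides had similar wild-type reads, with medians of 95 and 92. With an H3K27me3 peak (2118 regions) 32.4% was left, and without one 18.6%, at 37.6% and 20.1% in the weakest class and 18.7% and 14.2% in the strongest. Here the sides of the strongest class were less alike, with medians of 77 and 96 wild-type reads. For both antibodies, the values without score classes include the regions listed in null cells alone. HELLS peaks were found at 33.6% of regions listed in both genotypes, 12.6% of those listed in wild type alone and 4.76% of those in null alone. For H3K27me3 these shares were 20.6%, 20.6% and 37.0%. In the same order the 3 lists had median widths of 940, 602 and 481 bp and medians of 64, 34 and 13 wild-type reads. The part of width and strength in these shares was not tested. The null profile at wild-type E2F3 summits had 31.6 reads per kb within 60 bp and 14.7 at 200 to 300 bp, beside 33.1 and 14.6 in the wild-type HELLS library. What the E2F3 antibody recovered in null cells was not tested.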

How the data were processed

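The members, classes and lists were chosen with earlier results of these data known. Reads were sequenced from 1 library per group, per the labels, and deposited as aligned reads on the mm9 build named in the submitters' processing notes. No aligner is given in the sources used here. The authors called peaks per library with MACS 1.4.0beta against IgG at a p cutoff of 1e-05, per the file headers. The deposited tables give the tag count of each peak, a score, a fold enrichment (a ratio over the local background) and, in percent, a false discovery rate. Summit signal heights come from a deposited file of summits. These authors' values only ranked, filtered or described peaks. The headers name separate IgG controls of 3444066 and 3791438 tags, while the deposited IgG files are identical.

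Distinct reads (1 for each position and strand) were shifted by 60 bp and counted per region with numpy 2.4.6, pandas 2.3.3 and scipy 1.17.1. Counts were scaled by the distinct reads outside the 27092 peak regions of the series (21.5 Mb). Ratios carry exact conditional binomial intervals, shares Clopper-Pearson intervals and the excess left an interval by error propagation from 3 Poisson totals. Log2 ratios have 0.5 added to each count. A gap is the number of bases between regions. Profiles used 20 bp bins smoothed over 3. Named regions were the one nearest the median ratio in each of 5 score classes, the 3 lowest and 3 highest ratios in the top 10% by score, the 3 highest null scores in shared and in null-only regions, the 3 with most IgG reads, the 3 widest, and the 2 closest pairs with 50 or more wild-type reads each. The counting and the profile width were tested on simulated data. Alternatives were other scalings, read filters, shifts, windows, score and fold thresholds, pseudocounts, centres and neighbour distances.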

Additional observations from a re-analysis of the deposited data

How the results depend on the processing

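No paired analysis was possible because each group has 1 library. The fall in the median log2 ratio and in the count of lower regions held in direction under every alternative run. Scaling by all distinct reads moved the median from -1.45 to -1.36 and the excess left from 20.8% to 22.2%. Setting the median of shared regions to no change, which removes any common loss by construction, gave 1459 lower and 607 higher regions and a median of -0.29. Regions from peaks of score 100 or more gave 1 higher region, a median of -1.65 and 18.4% left; the difference between the strongest and weakest 25% was -0.78 in place of -0.67, and between the widest and narrowest 0.42 in place of 0.15. A 500 bp window gave a median of -1.53, 18.5% left, and differences of -1.05 by strength, 0.20 by IgG (0.36 with whole regions), 0.085 by spacing (0.0014) and -0.29 by width. Adding 2 to each count gave a median of -1.33 and differences of -0.77 by strength, 0.18 by IgG and -0.039 by width. The cause of these shifts was not tested. Counting every deposited read, leaving out the shift, autosomes alone, a 1.5-fold threshold, a 20 kb neighbour distance and each chromosome's own scaling changed none of the values tried under them beyond its limit for a move. Each chromosome's own scaling, the other centres, the splits by strand and the own-fragment shift were chosen after seeing the data. Own-fragment shifts gave profile widths of 134 bp and 308 bp. The main rule calls no loss under 2-fold at any depth. Depth also limits single regions, which held a median of 38 wild-type reads.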
